A study of Homo sapiens with 9 samples.

Results

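Heat shock proteins and their J-domain partners were followed through depletion of TTC33 or CCDC97 in human HEK293 cells. The group holds 71 of the 60664 genes in the count tables, of which 19966 are protein-coding. Members were chosen by symbol: protein-coding genes of the HSPA, HSPB, HSPD, HSPE, HSPH and HSP90A families and of the DNAJA, DNAJB and DNAJC families, with the regulators HSF1, HSF2 and BAG3. The 7 endoplasmic reticulum chaperones HSPA5, HSPA13, HSP90B1, DNAJB9, DNAJB11, DNAJC3 and DNAJC10 were left out. Classed by symbol, 41 members are J proteins (4 of class A, 10 of class B and 27 of class C). A further 9 are HSP70 proteins, 1 is the mitochondrial HSP70, 3 are HSP110 proteins and 2 are HSP90 proteins. The rest are 3 genes of the mitochondrial chaperonin, 9 of the small heat shock family and 3 regulators. These classes include the joined genes HSPE1-MOB4, HSPB2-C11orf52 and DNAJC25-GNG10, which share exon bases with HSPE1, HSPB2 and DNAJC25. After a filter on low counts 57 members could be tested and 14 could not. Of those 14, 5 had 0 counts in every library and 9 had some, with at most 9 counts in a library.

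RNA was measured in HEK293 Flip-In T-Rex cells, which derive from human embryonic kidney and carry a site where a transgene under tetracyclin control can be placed. The 3 groups of 3 libraries are control cells that express no microRNA, cells that express a microRNA against CCDC97 and cells that express a microRNA against TTC33. All 3 groups, control included, received tetracyclin at 100 ng/ml for 3 days. The question was how depletion of either protein changes gene expression. Since the control expresses no microRNA, expression of a microRNA and loss of its target cannot be told apart. The labels do not say whether a line is a clone, or whether the libraries of a group came from separate cultures, so every p-value rests on the spread of these libraries alone, and that spread may be technical.

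Chaperones bind unfolded stretches of other proteins and keep them from clumping. J proteins hand such clients to HSP70 and start its ATP cycle, HSP110 proteins and BAG3 release the bound nucleotide, HSP90 completes the folding of kinases and receptors, and small heat shock proteins hold clients without using ATP. The transcription factor HSF1 is held inactive by chaperones, and when unfolded proteins engage these it binds heat shock elements, inverted repeats of GAA spaced by a pair of free bases, and induces HSP70, J protein and HSP90 genes. BAG3 joins HSP70 to the small heat shock protein HSPB8 and directs bound clients to selective autophagy.

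Heat shock elements were looked for in RefSeq promoters on GRCh38.p14, from 250 bases before to 50 bases after each gene's start, which were given for 61 of the 71 members. A pair of facing units, GAANNTTC or TTCNNGAA, reads alike on both strands and stood in 14 of the 61 member promoters (23.0%) and in 13.5% of all 35116 promoters. A run of 3 alternating units, in which a pair of such matches overlap, stood in 4 member promoters (6.56%; DNAJA1, DNAJB6, HSPA6 and HSPA8) and in 0.490% of all promoters. The CCAAT box, searched on both strands, was in 21 member promoters (34.4%) and in 34.6% of all. By class, the 2-unit match was in 5 of 7 HSP70 promoters, 4 of 6 promoters of small heat shock proteins and 1 of 23 class C J protein promoters. Windows of 5 members, all of which hold at least 1 match, are shown with every such match in capitals, from 250 bases before the start to 30 bases from the start on. HSPB8, HSPA8 and DNAJB6 rose in the TTC33 knock-down, DNAJA1 rose in the CCDC97 knock-down, and HSPA1B, the classic heat-induced HSP70, is shown for comparison.
HSPB8: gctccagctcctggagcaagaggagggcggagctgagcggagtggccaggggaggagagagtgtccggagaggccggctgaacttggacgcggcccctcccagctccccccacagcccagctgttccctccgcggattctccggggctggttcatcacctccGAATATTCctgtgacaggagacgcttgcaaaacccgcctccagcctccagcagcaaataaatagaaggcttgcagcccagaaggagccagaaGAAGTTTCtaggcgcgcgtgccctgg
HSPA8: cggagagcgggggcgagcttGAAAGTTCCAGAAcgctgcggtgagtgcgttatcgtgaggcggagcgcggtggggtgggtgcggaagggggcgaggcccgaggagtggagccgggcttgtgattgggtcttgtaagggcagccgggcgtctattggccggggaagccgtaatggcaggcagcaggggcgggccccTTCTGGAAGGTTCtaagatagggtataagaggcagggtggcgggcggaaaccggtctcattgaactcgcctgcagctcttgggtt
DNAJB6: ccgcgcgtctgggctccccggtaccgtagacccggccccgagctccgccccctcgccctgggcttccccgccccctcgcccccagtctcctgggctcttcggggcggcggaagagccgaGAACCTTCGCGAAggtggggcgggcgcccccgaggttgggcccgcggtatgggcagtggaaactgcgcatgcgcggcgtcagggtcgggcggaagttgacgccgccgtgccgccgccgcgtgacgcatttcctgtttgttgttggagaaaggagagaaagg
DNAJA1: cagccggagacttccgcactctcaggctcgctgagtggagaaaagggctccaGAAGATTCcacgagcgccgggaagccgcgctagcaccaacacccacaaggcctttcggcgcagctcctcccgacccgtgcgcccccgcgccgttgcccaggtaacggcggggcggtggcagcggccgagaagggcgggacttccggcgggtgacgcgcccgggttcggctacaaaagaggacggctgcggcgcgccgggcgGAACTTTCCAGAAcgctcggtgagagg
HSPA1B: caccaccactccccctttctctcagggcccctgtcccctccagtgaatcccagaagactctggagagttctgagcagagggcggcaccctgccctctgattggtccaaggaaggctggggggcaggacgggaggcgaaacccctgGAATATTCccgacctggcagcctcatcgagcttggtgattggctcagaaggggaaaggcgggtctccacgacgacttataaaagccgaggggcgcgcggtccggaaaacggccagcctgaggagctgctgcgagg
These windows lie at chr12:119178681-119178960 (plus strand), chr11:123062107-123062386 (minus strand), chr7:157336754-157337033 (plus strand), chr9:33025023-33025302 (plus strand) and chr6:31827488-31827767 (plus strand). HSPA8 holds runs of 3 units that begin 230 and 55 bases before the start. DNAJB6 holds such a run 131 bases before the start, and DNAJA1 one 3 bases after it, besides a 2-unit match 198 bases before it. HSPB8 holds 2-unit matches 88 bases before and 4 bases after the start, and HSPA1B one 105 bases before it. No 2-unit match stood in the windows of BAG3, DNAJB1 and HSPH1, nor in those of DNAJB2, DNAJB5, DNAJB12, DNAJC11 and HSPA12A, all called in the TTC33 knock-down. Only 1 window per gene was searched, at 1 start. Matches farther away or at another start of the gene would be missed, so these genes may still hold such elements. Of the 11 members called in the TTC33 knock-down, 3 held the 2-unit match (27.3%) and 2 the 3-unit run (18.2%). Of the 4 called in the CCDC97 knock-down, DNAJA1 held both (25% each), and HSP90AA1, DNAJC8 and DNAJC28 held neither. Of the 51 tested members with a promoter given, 11 (21.6%) held the 2-unit match and 4 (7.84%) the 3-unit run. Whether the called members differ in this from the other tested members was not tested.

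The counts assigned to genes ranged from 21764203 to 36110891 per library, and 18299 genes passed the filter. The targeted genes matched the labels. TTC33 measured 37.7, 37.1 and 38.6 CPM (counts per 1e6 scaled library counts) in control and 9.67, 6.41 and 6.16 CPM in the TTC33 knock-down, and fell by 2.34 on the log2 scale (edgeR adjusted p = 0.000106). CCDC97 measured 60.6, 60.1 and 59.5 CPM in control and 15.8, 15.3 and 15.7 CPM in its own knock-down, and fell by 1.94 on the log2 scale (edgeR adjusted p = 1.24e-05). CCDC97 itself was higher in the TTC33 knock-down, at 65.1, 81.3 and 95.8 CPM (log2 fold change 0.43 ± 0.12 SE, adjusted p = 0.0371 by edgeR). Summed over 8 HEK293 markers the level was 1055 to 1090 CPM in control, 999.6 to 1095 CPM in the CCDC97 knock-down and 1134 to 1292 CPM in the TTC33 knock-down. Of these markers VIM was the highest, with means of 616, 602 and 780 CPM in these groups, and NEFM the lowest, at 0.608 to 1.12 CPM over the libraries. By their means NEFL, PAX2 and LHX1 were lower in the TTC33 knock-down than in control, NEFL at 152 against 188 CPM. The 7 markers of other cell types summed to 0.166 to 0.272, 0.198 to 0.436 and 0.797 to 1.61 CPM, and each of PTPRC, PECAM1, DCN, MYH1 and MYH2 was at 0 in at least 1 library. The fibroblast markers LUM and DCN had means of 0.105 and 0 CPM in control and 0.655 and 0.163 CPM in the TTC33 knock-down. Only MYH2 was lower there, with means of 0.0106 CPM in control and 0 in the TTC33 knock-down.

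In each knock-down replicate 1 stood apart from replicates 2 and 3 along the GC content of the genes. Over the 57 tested members, the Spearman correlation between GC content and a library's difference from the control mean was 0.44 in CCDC97 knock-down replicate 1 and -0.34 in replicates 2 and 3, against -0.06, -0.32 and 0.28 in the 3 control libraries. It was 0.03 in TTC33 knock-down replicate 1, and 0.70 and 0.61 in replicates 2 and 3. The correlations over 18042 genes were 0.32, -0.39 and -0.41 in the CCDC97 knock-down and -0.11, 0.55 and 0.57 in the TTC33 knock-down. Control libraries gave -0.08, -0.08 and 0.15. Over the members the values of CCDC97 knock-down replicates 2 and 3 were thus close to that of control replicate 2, and over all genes they lay outside the control range. These describe the libraries, whose genes share depth and base composition. Over the 19 members with the highest GC content (52.0% to 64.7%) the median log2 difference was 0.13, 0.41 and 0.41 in the 3 TTC33 knock-down libraries. Over the 19 with the lowest (33.1% to 43.1%) it was 0.09, -0.14 and -0.13. The part of GC content in the changes was not tested, so the values after correcting for GC content and for transcript length, and those without replicate 1 of both knock-downs, are given below.

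**Figure D1:**
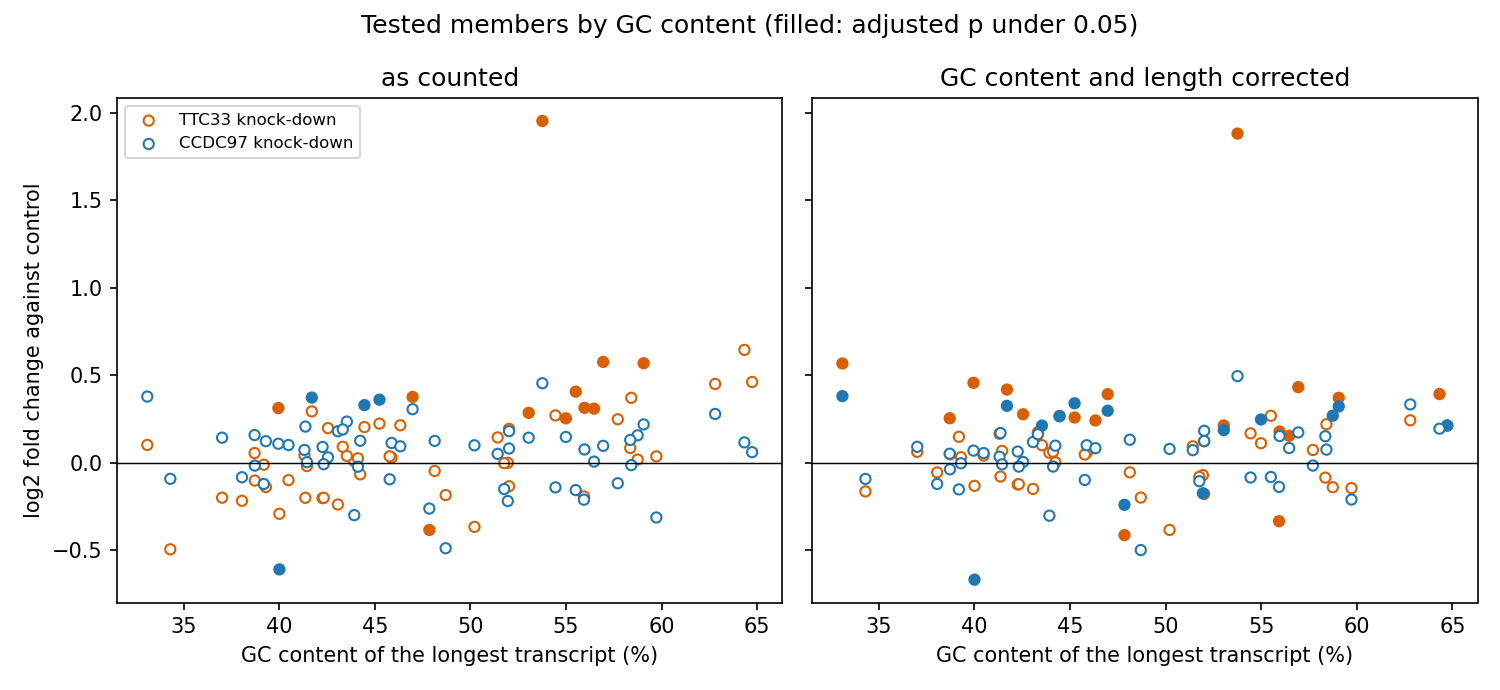
Log2 fold change against control (y axis) of each tested member against the GC content of its longest transcript in percent (x axis), as counted (left) and after correction for GC content and length (right); orange is the TTC33 and blue the CCDC97 knock-down, and filled points pass an edgeR adjusted p of 0.05. In the left panel the orange points climb to the right, from a median near 0 or below at low GC content, and in the right panel the filled points are spread over the whole range from 33.1% to 64.7% GC.

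Cytosolic HSP90 led the chaperone mRNAs. Levels per exon length over the control libraries are given as TPM (transcripts per 1e6, from counts divided by exon length). That length joins the annotated exons of all transcripts of a gene, so it can exceed the length of the transcripts present. HSP90AA1, the stress-inducible form of HSP90, stood at 2501 ± 68.5 TPM (SD, n = 3) and its constitutive counterpart HSP90AB1 at 2439 ± 46.8. Their ranges of mean ± SD overlap. Next came HSPD1, the mitochondrial HSP60, at 1023 ± 36.8 TPM and HSPA8, the constitutive cytosolic HSP70, at 977 ± 26.3 TPM, which overlap as well. HSPA1B followed at 661 ± 36.5 TPM, clear of its neighbours on both sides. DNAJA1, the most abundant J protein, the nucleotide exchange factor HSPA4 and mitochondrial HSPA9 (mortalin) had 316 ± 14.3, 312 ± 9.85 and 307 ± 0.944 TPM and did not separate beyond their SD. DNAJC8, a J protein found with the spliceosome, had 186 ± 5.38 TPM, and DNAJA2, a class A partner of HSP70, had 112 ± 5.26 TPM, close to the 107 ± 1.93 TPM of DNAJB1 and the 101 ± 2.06 TPM of HSPH1. At the other end of the tested members HSPB8 had 1.38 ± 0.115 TPM and HSPA6, an HSP70 that is silent in most unstressed cells, had 0.658 ± 0.145 TPM. HSP90AA1 alone held 28.3% to 32.6% of the members' counts in a library, and the 8 members with the most counts held 78.4% to 82.0%.

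**Figure D2:**
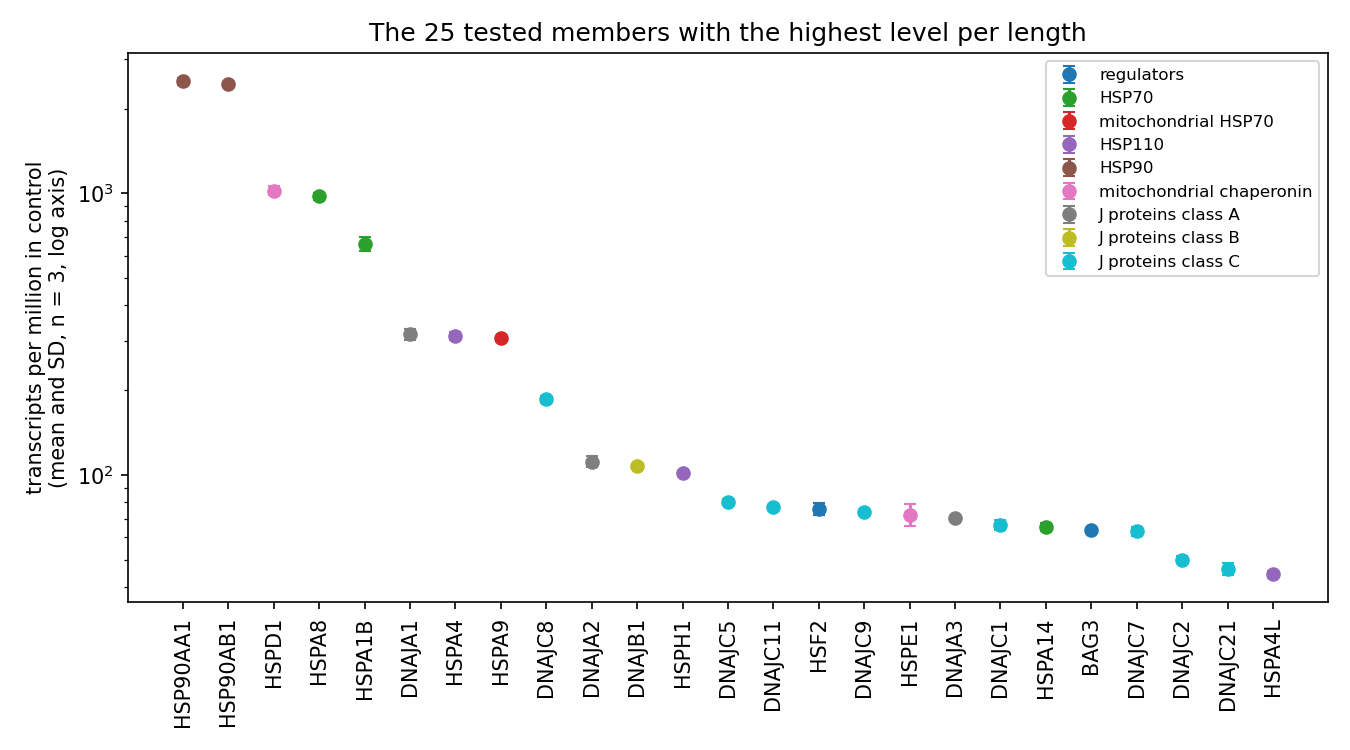
Control level per exon length in TPM (y axis, log scale, points are means and bars SD of 3 libraries) of the 25 tested members with the highest level (x axis), coloured by class. Levels run from 2501 for HSP90AA1 through 1023 for HSPD1 and 316 for DNAJA1, and 13 of the 25 lie below those of HSPH1 at 101.

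In the TTC33 knock-down the BAG3-HSPB8 pair, the constitutive HSP70 with its release factor HSPH1, and most class B J proteins were higher. Of 57 tested members 11 passed the test (19.3%), where 11.9% of all genes tested did. By direction 10 rose (background 6.5%) and 1 fell (background 5.44%). The median log2 fold change was 0.04 over the members and 0.00 over all genes tested. The DESeq2 Wald test called 18 members (background 18.3%), the same 11 and 7 more. In bulk RNA, more cells of a kind and more RNA per cell cannot be told apart.

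HSPB8 changed most. It measured 1.08, 0.925 and 1.01 CPM in control, 1.66, 1.35 and 1.06 CPM in the CCDC97 knock-down and 4.72, 2.88 and 4.09 CPM in the TTC33 knock-down. Every TTC33 knock-down library lay above every other library. The rise was 3.87-fold (log2 fold change 1.95 ± 0.22 SE, adjusted p = 0.000367 by edgeR), and it passed without any single library as well. The gene is sparsely expressed, with 32 to 39 counts in the control and 83 to 147 in the TTC33 knock-down libraries. With GC content and length corrected the log2 fold change was 1.88, and without replicate 1 of both knock-downs it was 1.78.

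BAG3, the partner of HSPB8, measured 43.6, 44.5 and 45.9 CPM in control, 55.8, 43.1 and 44.3 CPM in the CCDC97 knock-down and 55.6, 69.3 and 74.8 CPM in the TTC33 knock-down. Replicate 1 of the CCDC97 knock-down, at 55.8 CPM, reached the lowest TTC33 knock-down library. The rise against control was 1.49-fold (log2 fold change 0.58 ± 0.12 SE, adjusted p = 0.0153 by edgeR). HSPB1 (HSP27), the most studied small heat shock protein, measured 13.2, 13.1 and 13.5 CPM in control and 14.5, 22.3 and 25.4 CPM in the TTC33 knock-down. Its libraries lay above control, with replicate 1 barely so, and the difference missed the threshold (log2 fold change 0.64 ± 0.20 SE, adjusted p = 0.0571 by edgeR). The factor HSF1 missed it as well, with 46.3, 45.1 and 49.3 CPM in control and 51.9, 68.6 and 73.1 CPM in the TTC33 knock-down (log2 fold change 0.46 ± 0.14 SE, adjusted p = 0.0546 by edgeR). Replicate 1 again stood lowest of the knock-down libraries. Both passed with DESeq2 and after the GC content and length correction, then with log2 fold changes of 0.39 for HSPB1 and 0.21 for HSF1. HSF2, a related factor of development and stress, had 54.1, 50.3 and 51.8 CPM in control and 57.6, 45.9 and 42.3 CPM in the TTC33 knock-down. Its replicate 1 lay above control and replicates 2 and 3 below it.

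Among the ATP-driven chaperones, HSPA8 measured 1153, 1193 and 1268 CPM in control, 1289.9, 1634 and 1543 CPM in the CCDC97 knock-down and 1496, 1567 and 1627 CPM in the TTC33 knock-down. Both knock-downs lay above control without overlap, and they overlapped each other. The rise in the TTC33 knock-down was 1.30-fold (log2 fold change 0.38 ± 0.09 SE, adjusted p = 0.0215 by edgeR). HSPH1 (HSP105), which releases the nucleotide from HSP70, was close to even within groups, with 213, 219 and 217 CPM in control and 271, 269 and 266 CPM in the TTC33 knock-down. That is 1.24-fold higher (log2 fold change 0.31 ± 0.07 SE, adjusted p = 0.0157 by edgeR), and the value grew to 0.46 with GC content and length corrected. HSPA4, of the same class, had 485, 467 and 455 CPM in the TTC33 knock-down against 406, 417 and 405 CPM in control and missed the threshold (edgeR adjusted p = 0.064), but passed with DESeq2. The heat-induced HSPA1B did not move with HSPA8. It measured 406, 405 and 462 CPM in control and 414, 432 and 444 CPM in the TTC33 knock-down, with overlapping groups and a log2 fold change of 0.02 ± 0.07 SE whose sign depended on the setting. HSPA1A, a nearly identical neighbour, was counted at only 0.707 to 1.73 CPM over the 9 libraries, and reads that fit both genes could not be assigned, so both levels are uncertain.

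HSPA12A, a distant HSP70 relative, was the only member called lower by edgeR in this comparison, to which DESeq2 added DNAJC6. It measured 58.7, 60.9 and 61.2 CPM in control, 51.3, 49.6 and 49.9 CPM in the CCDC97 knock-down and 47.9, 46.5 and 44.1 CPM in the TTC33 knock-down. All 6 knock-down libraries lay below all 3 control libraries. The TTC33 knock-down value, which fell by 0.38 on the log2 scale (SE 0.07, edgeR adjusted p = 0.00596), passed without any single library and under every alternative. HSPA12A shares exon bases with genes on the opposite strand (535 with AC016825.1 and 166 with ENO4), and the strand setting of the counting is not given in the sources used here.

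Class B J proteins, the class of the heat-inducible HSP70 partner DNAJB1, gave 5 of the 10 rises: 5 of 7 tested members were higher (background 6.5%), with a class median log2 fold change of 0.29. With the correction for GC content and length 4 of 7 were higher (background 13%), with a median of 0.21. These were DNAJB1, DNAJB2 and DNAJB12, which kept their calls, and DNAJB4, which was newly called. In the CCDC97 knock-down the correction also gave 4 of 7 (background 11.1%), with a median of 0.19. DNAJB1 measured 100.1, 99.4 and 101 CPM in control and 113, 125 and 127 CPM in the TTC33 knock-down (log2 fold change 0.29 ± 0.07 SE, adjusted p = 0.0222 by edgeR). Its control libraries were close together and every knock-down library of either kind lay above them. DNAJB2, a J protein enriched in neurons that carries clients to the proteasome, had 9.98, 10.8 and 10.8 CPM in control and 12.9, 16.6 and 17.4 CPM in the TTC33 knock-down (log2 fold change 0.57, edgeR adjusted p = 0.0222). DNAJB12, anchored in the endoplasmic reticulum membrane, had 54.8, 55.6 and 56.6 and 61.1, 72.0 and 73.8 CPM in these groups (log2 fold change 0.31, edgeR adjusted p = 0.0474). In both genes replicate 1 was the lowest TTC33 knock-down library and lay at or below the level of CCDC97 knock-down replicate 1 when rounded to 3 digits. DNAJB6, which holds back aggregation of polyglutamine proteins, had 100.4, 94.5 and 98.5 and 113, 117 and 119.9 CPM (log2 fold change 0.25, edgeR adjusted p = 0.0451). The sparsely expressed DNAJB5 had 3.62, 3.62 and 3.36 and 4.50, 4.72 and 4.86 CPM (log2 fold change 0.41, edgeR adjusted p = 0.0365). With GC content and length corrected the log2 fold changes were 0.11 for DNAJB6 and 0.27 for DNAJB5, both short of the threshold, and 0.37 for DNAJB2 and 0.15 for DNAJB12, which still passed. The other 2 tested members of the class, DNAJB4 and DNAJB14, did not pass without the correction. In each of them replicate 1 stood apart from replicates 2 and 3: DNAJB14 had 50.9, 51.1 and 50.3 CPM in control and 54.7, 26.2 and 27.0 CPM in the TTC33 knock-down.

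None of the 3 tested class A members passed with edgeR in this comparison (background 11.9%). Of them 1, DNAJA1, had an unadjusted p under 0.05 and passed with DESeq2 (background 18.3%). DNAJA1 had 274, 269 and 264 CPM in the TTC33 knock-down against 212, 229 and 218 CPM in control, without overlap (log2 fold change 0.29 ± 0.09 SE, adjusted p = 0.0583 by edgeR). Of the 25 tested class C members edgeR called 1 (4%, background 11.9%), DNAJC11, a protein of the mitochondrial membrane. It rose from 97.6, 98.4 and 102 to 107, 130.1 and 133 CPM (log2 fold change 0.31, edgeR adjusted p = 0.0337, and 0.18 with the correction). DNAJC11 shares 1419 exon bases with THAP3 on the opposite strand. DNAJC6 (auxilin), which uncoats clathrin vesicles, had 63.7, 63.2 and 61.6 CPM in control and the lower values 58.3, 52.2 and 53.6 CPM in the TTC33 knock-down, without overlap and without passing (edgeR adjusted p = 0.0843). DESeq2 called 4 of the 25 class C members (background 18.3%), DNAJC11, DNAJC5 and DNAJC7 higher and DNAJC6 lower. DNAJC5 and DNAJC7 had log2 fold changes of 0.25 and 0.21 in edgeR and missed its threshold (adjusted p = 0.0537 and 0.0587). Among the remaining class C members named for their roles, DNAJC13, an endosomal J protein, ranged over 62.5 to 71.2 CPM in the 9 libraries, DNAJC12, a cochaperone of the aromatic amino acid hydroxylases, over 14.6 to 22.8 CPM, and the nuclear DNAJC17 over 6.52 to 9.39 CPM.

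The cytosolic HSP90 genes and the mitochondrial chaperones did not pass with edgeR or DESeq2, and of them only HSP90AA1 had an unadjusted p under 0.05. HSP90AA1 measured 3208, 3414 and 3388 CPM in control and 3909.7, 3908 and 3869.9 CPM in the TTC33 knock-down (log2 fold change 0.22, edgeR adjusted p = 0.12), above control in all 3 libraries. HSP90AB1 gave -0.05 ± 0.08 SE on the log2 scale, with overlapping groups. HSPA9 was flat, with a log2 fold change of 0.04 ± 0.06 SE. The chaperonin HSPD1 had 1081, 1138 and 1094 CPM in control and 1116, 1052 and 996 CPM in the TTC33 knock-down, and its cochaperonin HSPE1 34.0, 39.7 and 35.4 and 39.9, 25.2 and 19.4 CPM. HSPE1 thus spanned more than its control range within the knock-down. HSPE1 shares 281 exon bases with HSPD1 on the opposite strand and 192 with HSPE1-MOB4, and 26 processed copies elsewhere held counts equal to 1.64% to 4.55% of its own, so its counts are uncertain.

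**Figure D3:**
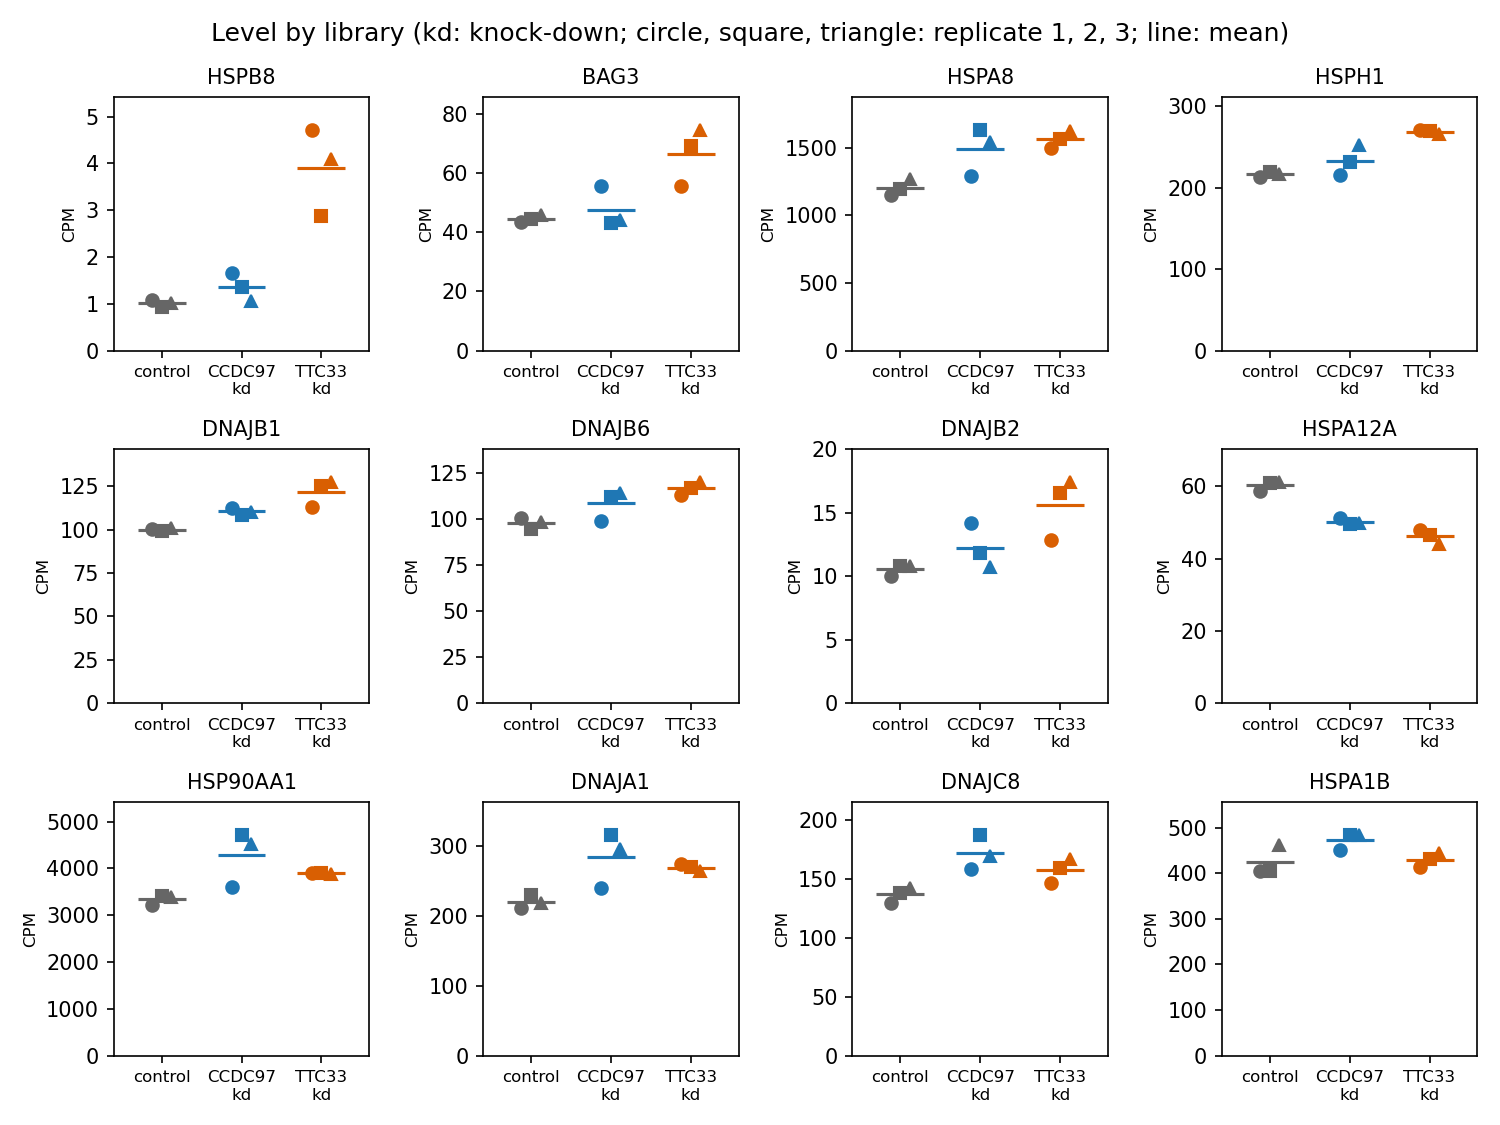
Level in CPM (y axes, from 0) of 12 members in the 9 libraries, by group (x axes: control in grey, CCDC97 knock-down in blue, TTC33 knock-down in orange; circle, square and triangle are replicates 1, 2 and 3, lines are means). HSPB8 in the TTC33 knock-down (2.88 to 4.72 CPM) and HSPA12A in both knock-downs lie clear of control, while HSPA1B overlaps control.

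The TTC33 knock-down calls varied in how often they held when 1 library was left out. HSPB8 and HSPA12A passed in all 9 leave-one-out fits, each without a different library. BAG3, HSPA8, HSPH1, DNAJB1 and DNAJB2 each failed in 5 of them, those without control replicate 1, 2 or 3 or without TTC33 knock-down replicate 2 or 3, with adjusted p of edgeR up to 0.0747, 0.105, 0.0860, 0.112 and 0.102. DNAJB5 failed in 6 and DNAJB6, DNAJB12 and DNAJC11 in 7, which add CCDC97 knock-down replicate 3, and for the last 3 genes replicate 2. Counts of members called were 2 without control replicate 1, 2 or 3 or TTC33 knock-down replicate 2 or 3, and 8 and 7 without CCDC97 knock-down replicates 2 and 3. They rose to 18 without CCDC97 knock-down replicate 1 and to 26 without TTC33 knock-down replicate 1. Calls over all genes moved the same way. From 2186 with all libraries they fell to between 552 and 700 in the fits with 2 members. Without CCDC97 knock-down replicates 2 and 3 they were 1873 and 1685. Without replicate 1 of the CCDC97 and of the TTC33 knock-down they were 3009 and 6512. No fold change of the 11 changed sign in any of these fits.

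Correction for GC content and length raised the members called in the TTC33 knock-down to 21 of 57 (36.8%, background 27.1%), 19 higher and 2 lower. Of the 11 called before, 9 were among them, all but DNAJB5 and DNAJB6. The additions were DNAJA1, DNAJA2, DNAJB4, DNAJC2, DNAJC7, DNAJC8, DNAJC19, HSF1, HSP90AA1, HSPA4 and HSPB1, all higher, and DNAJC17, which was lower. DNAJA1 then had a log2 fold change of 0.42 and HSPA4 one of 0.28. Without replicate 1 of both knock-downs 33 of 57 members were called (57.9%, background 48.7%), including all 11.

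Fewer members passed the test in the CCDC97 knock-down. The J protein DNAJA1, HSP90AA1 and the spliceosome-associated DNAJC8 rose and the little studied J protein DNAJC28 fell. That is 4 of 57 members (7.02%), where 4.56% of all genes tested passed. For the 3 that rose the background is 2.07%, and for the 1 that fell it is 2.49%. The median log2 fold change was 0.09 over the members and 0.00 over all genes tested. This comparison uses the same control libraries as the one before. The DESeq2 Wald test called 8 members (background 9.15%), these 4 and 4 more.

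HSP90AA1 measured 3603, 4719 and 4529 CPM in the CCDC97 knock-down against 3208, 3414 and 3388 CPM in control, a 1.28-fold rise (log2 fold change 0.36 ± 0.09 SE, adjusted p = 0.0472 by edgeR). Its counterpart HSP90AB1 had 1814, 2209 and 2022 CPM, overlapping control, with a log2 fold change of 0.12 ± 0.08 SE. The difference between the paired genes was not tested. DNAJA1 had 240.3, 316 and 296 CPM (log2 fold change 0.37 ± 0.09 SE, adjusted p = 0.0439 by edgeR). In both HSP90AA1 and DNAJA1 all 3 libraries lay above control, and replicate 1 was much closer to control than replicates 2 and 3.

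DNAJC8 had 158, 187 and 169 CPM in the CCDC97 knock-down against 129.6, 138 and 142 CPM in control (log2 fold change 0.33 ± 0.08 SE, adjusted p = 0.0448 by edgeR), all above control. DNAJC28 was low throughout, with 3.07, 3.46 and 3.04 CPM in control, 1.98, 2.05 and 2.27 CPM in the CCDC97 knock-down and 2.54, 2.39 and 2.91 CPM in the TTC33 knock-down. It fell by 0.61 on the log2 scale (SE 0.14, edgeR adjusted p = 0.0317). Neither knock-down overlapped control for DNAJC28, and the CCDC97 knock-down was the lower of them.

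Several members lay outside the control range in all 3 CCDC97 knock-down libraries without passing in edgeR. The 4 named first, HSPA8, HSPA9, HSPA12A and DNAJA3, passed with DESeq2. HSPA8 had 1289.9, 1634 and 1543 CPM (log2 fold change 0.31 ± 0.09 SE, adjusted p = 0.0726 by edgeR), HSPA9 703, 800.4 and 773 CPM against 631, 641 and 662 CPM in control (edgeR adjusted p = 0.0651) and HSPA12A 51.3, 49.6 and 49.9 CPM (edgeR adjusted p = 0.0515). DNAJA3, a mitochondrial J protein, had 109, 111 and 106 CPM against 126, 125 and 128 CPM in control (edgeR adjusted p = 0.0968). For BAG3, HSF1 and HSPB1 replicate 1 of this knock-down was above control and replicates 2 and 3 were near or below it, and their log2 fold changes of 0.10, 0.06 and 0.12 turned negative without that replicate (-0.03, -0.09 and -0.10). HSPB8 gave 0.45 ± 0.25 SE (edgeR adjusted p = 0.328).

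All 4 CCDC97 knock-down calls were lost when any 1 of several libraries was left out. DNAJC28 failed in 5 of 9 leave-one-out fits, those without any 1 control library or without CCDC97 knock-down replicate 2 or 3 (edgeR adjusted p up to 0.153). DNAJA1, HSP90AA1 and DNAJC8 failed in 7, which add TTC33 knock-down replicates 2 and 3 (edgeR adjusted p up to 0.197, 0.203 and 0.210). Without any 1 control library, or without CCDC97 knock-down replicate 2 or 3, edgeR called 0 members, with 8 to 10 at an unadjusted p under 0.05. Calls over all genes fell in these fits too, from 835 with all libraries to 203, 219, 241, 256 and 330. After the GC content and length correction 14 members were called (24.6%, background 19.2%), 11 higher and 3 lower, with all 4 among them. Of the 8 further members that were then higher HSPA8 had a log2 fold change of 0.30, HSPA9 of 0.21, HSF1 of 0.21 and HSPA1B of 0.27. The other 4 were the class B J proteins DNAJB1 (0.19), DNAJB2 (0.32), DNAJB4 (0.38) and DNAJB6 (0.25), so that 4 of 7 tested members of this class were higher in each knock-down with the correction, where 11.1% of all genes were in this one. HSPA12A, at -0.24, and DNAJA3 were lower. Without replicate 1 of both knock-downs 28 members were called (49.1%, background 35.6%), including all 4.

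**Figure D4:**
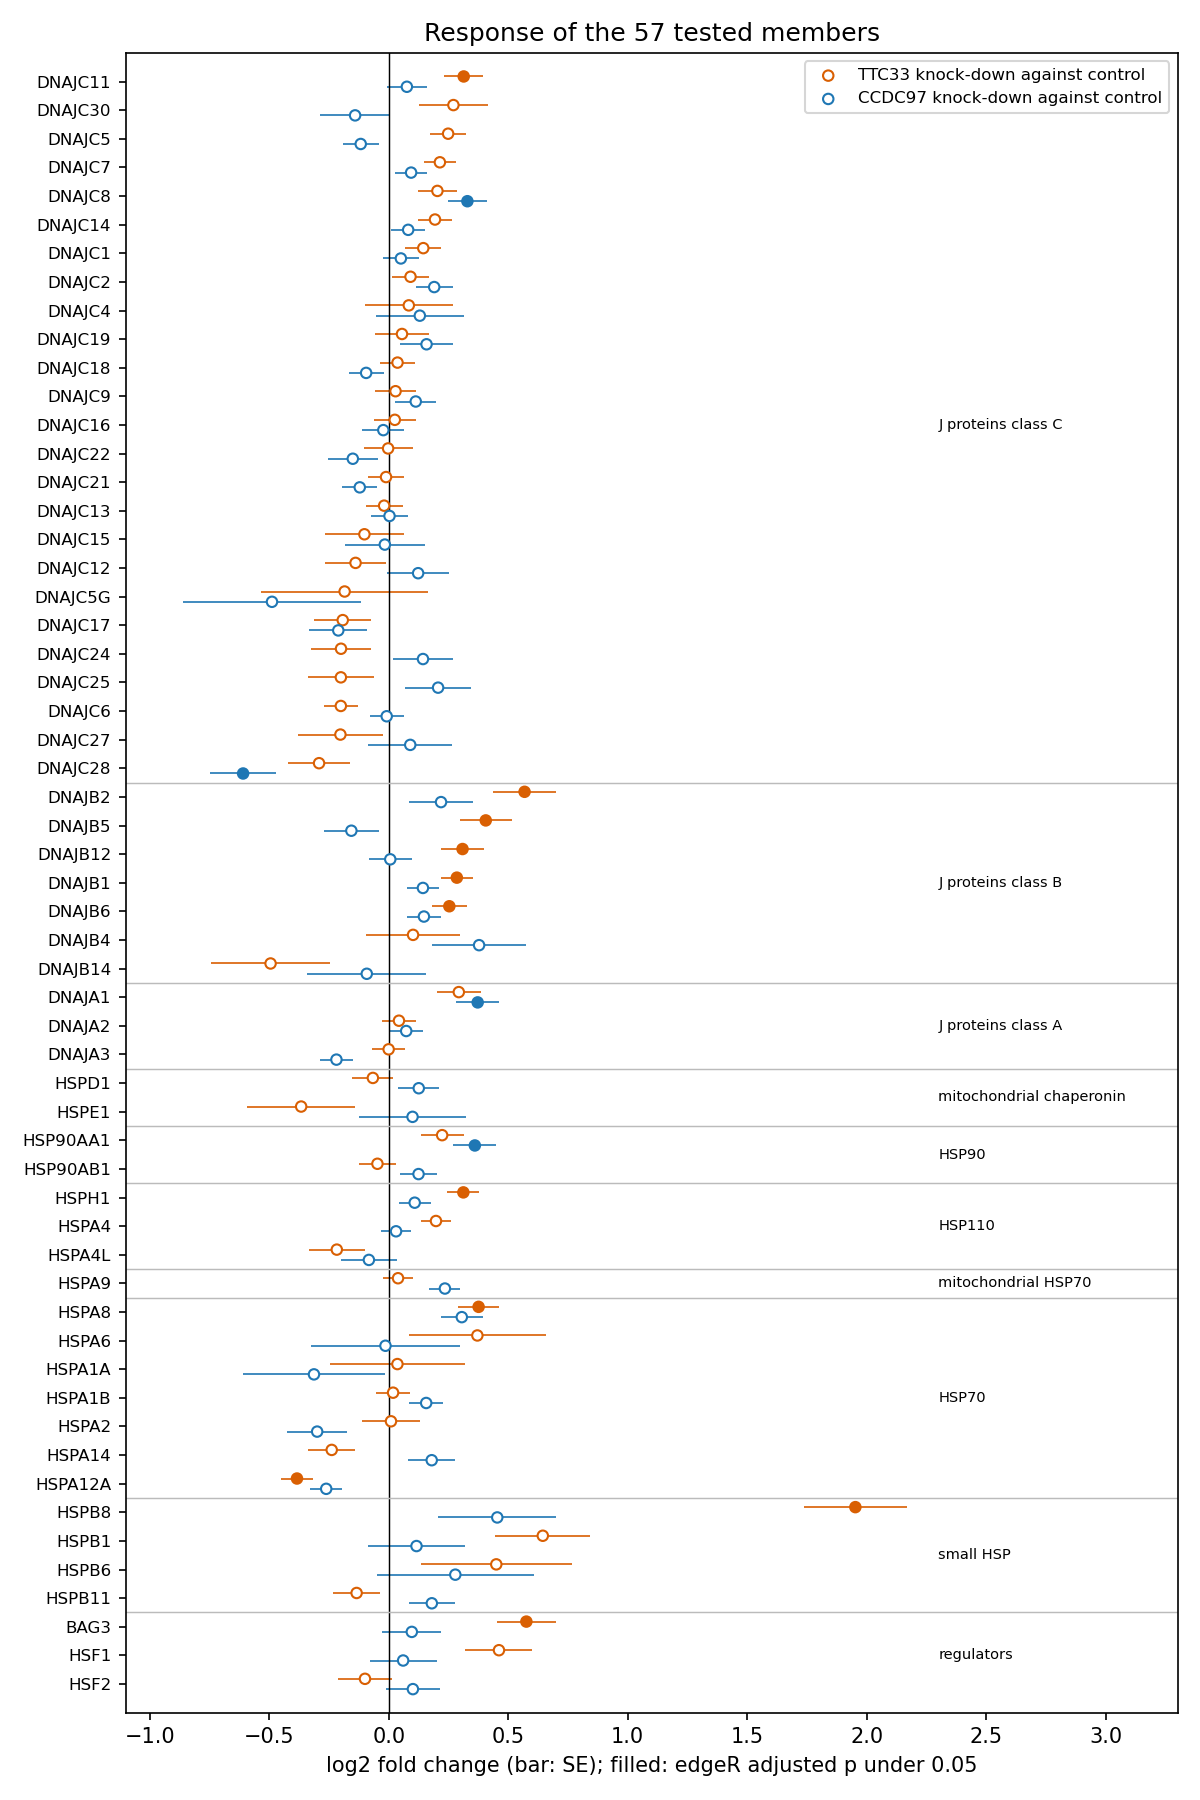
Log2 fold change against control (x axis, bars are SE) of the 57 tested members (y axis, by class) in the TTC33 (orange) and CCDC97 (blue) knock-downs, which share control libraries; filled points pass an edgeR adjusted p of 0.05. HSPB8 at 1.95 lies apart from all others in the TTC33 knock-down, and DNAJC28 at -0.61 is the lowest value in the CCDC97 knock-down.

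Set directly against each other, the knock-downs differed in 8 of 57 members (14.0%), below the 21.5% of all genes tested. DESeq2 called 16 (background 27%). Higher in the TTC33 knock-down with edgeR were 6 (background 11.3%) and lower were 2 (background 10.2%). HSPB8 led again, with a log2 fold change of 1.498 ± 0.21 SE (edgeR adjusted p = 0.00137). DNAJB5 followed, with 4.50, 4.72 and 4.86 CPM in the TTC33 and 3.36, 2.97 and 3.19 CPM in the CCDC97 knock-down (log2 fold change 0.56, edgeR adjusted p = 0.00751). DNAJC5, the cysteine string protein of synaptic vesicles, had 118, 136 and 129.7 against 106, 93.4 and 98.5 CPM, with control between them at 108, 108 and 107 CPM (log2 fold change 0.37, edgeR adjusted p = 0.00824). These 3 passed without any single library, and neither set of libraries overlapped the other.

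BAG3 (log2 fold change 0.48, edgeR adjusted p = 0.0207), DNAJB12 (0.30, edgeR adjusted p = 0.0361) and DNAJA3 (0.22, edgeR adjusted p = 0.0433) were also higher in the TTC33 knock-down. For DNAJA3 the TTC33 knock-down libraries, at 116, 129.9 and 133 CPM, lay around control and the CCDC97 knock-down lay below it. HSPA14, an HSP70 that works at the ribosome with DNAJC2, was lower in the TTC33 knock-down, with 40.8, 36.3 and 34.4 CPM against 43.3, 54.7 and 50.9 CPM in the CCDC97 knock-down and 42.1, 45.1 and 44.3 CPM in control (log2 fold change -0.42 ± 0.10 SE, adjusted p = 0.0153 by edgeR). HSPB11, a small heat shock family member that serves in intraflagellar transport, was lower as well, at 27.9, 26.0 and 25.1 against 28.8, 37.0 and 32.3 CPM (log2 fold change -0.31 ± 0.10 SE, adjusted p = 0.0414 by edgeR). For neither gene did the TTC33 and CCDC97 knock-down libraries overlap.

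With GC content and length corrected 13 members differed (22.8%, background 28%), 9 higher and 4 lower, and 5 of the 8 were among them. DNAJC5 (0.09), DNAJB12 (0.07) and DNAJA3 (0.10) no longer passed, while BAG3 (0.26), DNAJB5 (0.35) and HSPA14 (-0.27) passed with smaller values. Without replicate 1 of both knock-downs 37 members differed (64.9%, background 55.2%), including all 8, and BAG3 had a log2 fold change of 0.72. BAG3 and HSPA14 failed in 4 of 9 leave-one-out fits, those without replicate 2 or 3 of either knock-down (edgeR adjusted p up to 0.0997 and 0.0705). DNAJA3, DNAJB12 and HSPB11 failed in 7, which add control replicates 1, 2 and 3 (edgeR adjusted p up to 0.177, 0.146 and 0.157). Between 3 members (when TTC33 knock-down replicate 2 or 3 or CCDC97 knock-down replicate 2 was left out) and 24 (without TTC33 knock-down replicate 1) were called in those fits. Over all genes these fits called 1605, 1624, 1528 and 7767, against 3943 with all libraries.

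As a share of all gene counts, the 71 members made up 1.16%, 1.20% and 1.19% of the control libraries, 1.19%, 1.38% and 1.33% of the CCDC97 knock-down and 1.30%, 1.31% and 1.28% of the TTC33 knock-down. All 6 knock-down libraries but CCDC97 knock-down replicate 1 lay above every control. The class B J proteins held 0.0342%, 0.0334% and 0.0336% of control counts and 0.0380%, 0.0384% and 0.0387% of TTC33 knock-down counts, and 0.0338%, 0.0348% and 0.0342% of CCDC97 knock-down counts, which overlap control. These shares are not corrected for GC content. HSP70 proteins held 0.171%, 0.174% and 0.186% in control and 0.202%, 0.215% and 0.218% in the TTC33 knock-down. The HSP90 pair held 0.513%, 0.538% and 0.530% in control, and 0.540%, 0.659% and 0.622% in the CCDC97 knock-down. In the TTC33 knock-down this pair held 0.584%, 0.583% and 0.565%. All classes but the mitochondrial HSP70 and the mitochondrial chaperonin lay above control in every TTC33 knock-down library. These sums follow the most abundant members and have no test.

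**Figure D5:**
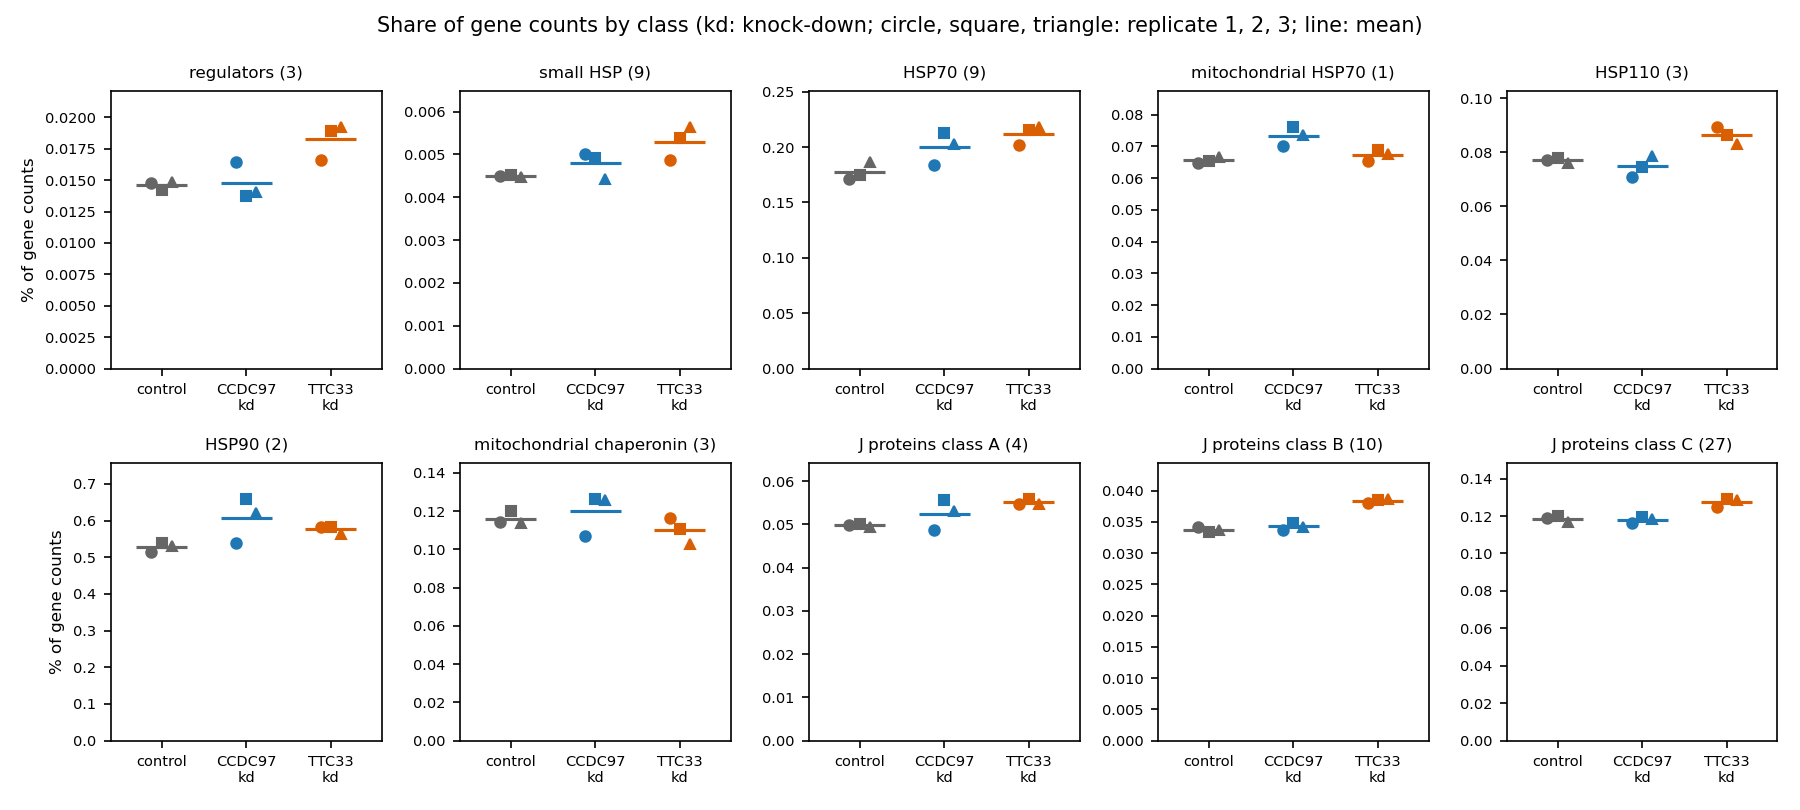
Share of all gene counts in percent (y axes, from 0) held by each class of members (number of genes in brackets) in the 9 libraries by group (x axes; symbols and colours mark replicate and group, lines are means). In all 3 libraries the TTC33 knock-down lies above control for every class but the mitochondrial HSP70 and the mitochondrial chaperonin. Class B J proteins (0.0380 to 0.0387%) and HSP70 (0.202 to 0.218%) are among these classes, and the HSP90 share is highest in CCDC97 knock-down replicates 2 and 3.

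Among other genes of the folding machinery SERPINH1, UBB, DEDD2, CLPB and PFDN1 rose in the TTC33 knock-down and PFDN1 and CCT5 in the CCDC97 knock-down. Of 48 tested genes outside the endoplasmic reticulum (HSP90 cochaperones, HSP70 cofactors, the TRiC chaperonin, prefoldin and heat-inducible genes outside the families) edgeR called 5 in the TTC33 knock-down (10.4%, background 11.9%), all higher, and DESeq2 called 9 (background 18.3%). Their median log2 fold change was 0.08, and that of the members 0.04. Correcting for GC content and length gave 13 in the TTC33 knock-down (27.1%, background 27.1%) and 15 in the CCDC97 knock-down (31.25%, background 19.2%). None of the 16 HSP90 cochaperones, 10 HSP70 cofactors and 8 TRiC subunits passed with edgeR, while 5, 4 and 2 of them had an unadjusted p under 0.05 and DESeq2 called 3, 1 and 0. Of the 8 tested heat-inducible genes and HSF1 partners 4 rose (background 6.5%): SERPINH1, the collagen chaperone HSP47 (log2 fold change 0.57 ± 0.11 SE), the polyubiquitin gene UBB (0.38 ± 0.09), DEDD2 (0.51 ± 0.14) and the mitochondrial disaggregase CLPB (0.24 ± 0.06). SERPINH1 measured 57.8, 58.3 and 61.3 CPM in control, 82.7, 69.4 and 68.6 CPM in the CCDC97 knock-down and 74.3, 93.0 and 96.4 CPM in the TTC33 knock-down, both knock-downs lying above control. The fifth, prefoldin subunit PFDN1, rose in both comparisons with control (0.30 ± 0.08 and 0.34 ± 0.08). In the CCDC97 knock-down edgeR called 1 other of the 48, the TRiC subunit CCT5 (0.32 ± 0.08), which makes 2 (4.17%, background 4.56%), and DESeq2 called 7 (background 9.15%). Between the knock-downs 9 of the 48 differed (18.8%, background 21.5%): CDC37 (0.36), which brings kinases to HSP90, BAG6 (0.37), DEDD2 (0.57) and CLPB (0.31) were higher in the TTC33 knock-down, and the HSP90 cochaperone p23 gene PTGES3 (-0.55), CACYBP (-0.26), BAG4 (-0.48), PFDN4 (-0.43) and HSBP1 (-0.49), whose product binds HSF1, were lower. Once GC content and length were corrected CDC37 (0.11), BAG6 (0.06), CACYBP (-0.03) and PFDN4 (0.04) no longer passed, and the other 5 passed.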

How the data were processed

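Total RNA of 9 libraries was sequenced; the labels give their 3 groups and replicate numbers. The authors deposited whole-number read counts per gene, which were used as given. The tools were Trimmomatic 0.39, HISAT2 and HTSeq 2.0.1 with the build GRCh38, per the submitters' processing notes. Not given in the sources used here are the HISAT2 version, annotation release, strand setting and library kit. The 2 tables of a sample are marked R12 and U, with no explanation. Tests used R12, and their sum with U (6.55% to 11.9% of the sum) was an alternative. Rows that name no gene held 33.4% to 57.9% of a library's R12 counts, with 8.43% to 37.6% for reads of several alignments, and were left out.

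Tests ran in R 4.3.3 with edgeR 4.0.16 on the 18299 genes that passed filterByExpr: TMM factors, a quasi-likelihood fit with a term per group on all 9 libraries (6 residual degrees of freedom, common biological coefficient of variation 0.109), two-sided p-values and Benjamini-Hochberg adjustment over all genes tested, with a threshold of 0.05. SE is the fold change divided by the root of its F statistic. CPM is per 1e6 TMM-scaled counts, and TPM uses exon lengths of GENCODE release 29, as do gene lengths, GC content and exon overlaps. On simulated counts with the same groups and depths, with 200 genes changed, 88% of those changed by 1 on the log2 scale, 38.1% of those changed by 0.5 and 0.07% of unchanged genes were called. The simulated counts were drawn for each gene on its own and held no trend with GC content. The real libraries do show such a trend, so these rates need not hold for them. Depth limits the sparse members most, which have under 100 counts in several libraries.

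The correction for GC content and length subtracts a smooth trend per library (mgcv 1.9.3) over 18042 genes (98.6%). Other alternatives were DESeq2 1.42.0 (its Wald test, and its size factors in edgeR), upper-quartile factors, 2 filters, the groups compared alone, the replicate number as a block, and leaving out libraries. The genes named are all members past the threshold in any comparison, a set of much studied members whatever their result, J proteins of splicing, synapse and clathrin coat, the 10 members with the highest level per length, and genes of the other lists past the threshold. Other members named in passing and those added by the correction were chosen after their values were seen. The members and lists were chosen with earlier results of these data known.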

Additional observations from a re-analysis of the deposited data

Results flagged for a closer look

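For 4 members the direct contrast of the knock-downs passed the threshold while their changes against control had opposite signs. DNAJB5 differed by 0.56 on the log2 scale between the TTC33 and the CCDC97 knock-down (edgeR), from 0.41 and -0.16 against control. DNAJC5 differed by 0.37, from 0.25 and -0.12. HSPA14 differed by -0.42, from -0.24 and 0.18. HSPB11 differed by -0.31, from -0.13 and 0.18. Of the 8 values against control only the rise of DNAJB5 in the TTC33 knock-down passed. The difference of DNAJC5 was 0.09 and did not pass after correction for GC content and length, and those of HSPA14, HSPB11 and DNAJB5 passed at -0.27, -0.36 and 0.35.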

How the results depend on the processing

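Of the settings that leave out no single library, DESeq2 size factors, upper-quartile factors and a filter at 5 CPM kept the count of members called in each comparison within 1.5 times. The numbers of members called below are for the TTC33 knock-down, the CCDC97 knock-down (each against control) and the direct contrast, which gave 11, 4 and 8, and those of all genes follow the same order after 2186, 835 and 3943. GC content and length correction gave 21, 14 and 13 members and, against control, 4962 and 3505 genes. With replicate 1 of both knock-downs left out there were 33, 28 and 37 members and 9129, 6675 and 10362 genes. The DESeq2 Wald test gave 18, 8 and 16 members, and 1447 genes in the CCDC97 knock-down. Without a filter there were 15 members in the direct contrast, and 3821 and 1369 genes against control. Fits of the compared groups alone gave 3 members and 1479 genes in the direct contrast and 1339 genes in the CCDC97 knock-down. The sum of R12 and U gave 2 members in the CCDC97 knock-down. Leaving out each library in turn gave 2 to 26, 0 to 10 and 3 to 24 members and 552 to 6512, 203 to 1981 and 1528 to 7767 genes, with the most without replicate 1 of a knock-down. The fewest members were left without any control library or TTC33 knock-down replicate 2 or 3 in the first, without any control library or CCDC97 knock-down replicate 2 or 3 in the second, and without CCDC97 knock-down replicate 2 or TTC33 knock-down replicate 2 or 3 in the third. The cause was not tested.

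The labels do not say whether same-numbered libraries are pairs. Deviations of same-numbered libraries correlated by -0.03, 0.094 and 0.013 between control and CCDC97 knock-down, against -0.083 to 0.062 for different numbers. Between control and TTC33 knock-down the values were 0.073, 0.04 and 0.068, against -0.067 to 0.02. Between the knock-downs they were -0.504, -0.114 and -0.139, against -0.274 to 0.37. Whether the samples are paired was not tested. The replicate block gave 3, 0 and 3 members and 756, 240 and 1857 genes. The 0 stands beside 10 members at an unadjusted p under 0.05. The replicate block with GC content and length correction gave 20, 13 and 13 members and, against control, 4543 and 3159 genes.

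No fold change of a called member changed sign. Among other values, without replicate 1 of both knock-downs, the CCDC97 knock-down log2 fold changes of BAG3, HSF1 and HSPB1 turned to -0.032, -0.091 and -0.10. Leaving out each library in turn gave -0.032 to 0.16, -0.094 to 0.13 and -0.10 to 0.21 for these genes, with the lowest value without CCDC97 knock-down replicate 1. With GC content and length corrected, without and with the block, HSF1 turned to -0.0018 and -0.0026 and PFDN4 to 0.042 and 0.033 in the direct contrast. In the TTC33 knock-down HSF2 turned to 0.042 and 0.041, HSPD1 to 0.0024 and 0.0033 and HSPA1B to -0.14 and -0.13. HSPA1B also turned to -0.0019 without a filter and -0.0024 with the sum of R12 and U. It spanned -0.017 to 0.082 over the fits without a library, below 0 without control replicate 1 or 2 or TTC33 knock-down replicate 3. The cause was not tested. Depth limits what could be seen in the 14 untested members, with at most 9 counts in a library.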

Other observations

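The 7 endoplasmic reticulum chaperones that the choice of members left out gave 2 rises in the TTC33 knock-down (background 6.5%) and 0 changes in the CCDC97 knock-down (background 4.56%; edgeR, with 1 at an unadjusted p under 0.05 and 0 with DESeq2). HSPA5 (BiP), the HSP70 of that compartment, measured 403, 429 and 424 CPM in control, 415, 464 and 442 CPM in the CCDC97 knock-down and 494, 521 and 489 CPM in the TTC33 knock-down. Its TTC33 knock-down libraries lay above all others (log2 fold change 0.26, edgeR adjusted p = 0.0279). DNAJB11, a J protein partner of BiP, measured 43.8, 43.5 and 42.2 CPM in control, 39.5, 36.9 and 39.4 CPM in the CCDC97 knock-down and 51.7, 53.9 and 49.7 CPM in the TTC33 knock-down. The groups did not overlap, with control between the knock-downs. It rose by 0.26 on the log2 scale against control (edgeR adjusted p = 0.0346) and differed by 0.42 between the knock-downs (edgeR adjusted p = 0.00293).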
